A study of Mus musculus with 24 samples.

Results

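The cilium genes described here are the 59 genes on the array whose single annotated symbol starts with Ift, Bbs or Cep followed by a digit, out of 18193 genes with a single symbol. They comprise 14 Ift genes, 8 Bbs genes and 37 Cep genes, and none was chosen by its signal. Of their 114 probe sets, 1 per gene was used, the brightest on average across all 24 arrays. The selection is by name: it also takes in Cep55, which acts in the last step of cell division, Cep83os, a transcript on the opposite strand of Cep83, and Cep295nl.

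RNA of retinas and pineal glands was hybridised to Affymetrix Mouse 430 2.0 arrays, to ask what loss of the transcription factor Neurod1 does in both tissues during day and night. Conditional knockout mice, called cKO, carried floxed Neurod1 alleles on both chromosomes and 1 copy of a Crx-Cre transgene. Control mice carried the same floxed alleles and no Cre. All were C57BL/6J mice of both sexes, 2 months old and kept under 12 h of light and 12 h of darkness. Each of the 8 groups, cKO and control retinas at ZT6 and ZT20 and cKO and control pineal glands at ZT6 and ZT20 (hours after lights on, ZT20 being collected in dim red light), had 3 arrays. Every array held RNA of 6 pooled organs, so p-values measure the spread between pools, and differences between animals of a pool cannot be seen. The Crx promoter is known to be active in photoreceptors, pinealocytes and bipolar cells. Which cells of the pools kept the gene was not measured.

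A cilium is a microtubule-based extension that grows from a centriole docked at the cell surface. Intraflagellar transport (IFT) trains carry its parts: IFT-B with kinesin moves outwards, and IFT-A with dynein moves back. The BBSome, a coat-like complex of Bbs proteins, rides on these trains and carries membrane proteins, and a chaperonin complex with Bbs10 and Bbs12 assembles it. Many Cep proteins build the centriole, its appendages and the transition zone at the base of the cilium. The outer segment of a rod or cone is a modified cilium, joined to the cell body by the connecting cilium, and defects in these genes are known to cause loss of photoreceptors. Mammalian pinealocytes share transcription factors and some phototransduction genes with photoreceptors but have no outer segment.

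The arrays were not on a common scale as deposited: their median signals ran from 107.8 to 183.2 in the retina and from 107.2 to 158.9 in the pineal gland. All signals below are therefore quantile-normalised, on a linear scale on which every array has a median of 134, and differences are on the scale log2(signal + 16). Genes entered the tests of a tissue where their mean there exceeded that median. This kept 55 members of 11341 genes in the retina, 52 of 11601 in the pineal gland and 53 of 11522 across tissues. Tests were limma's moderated tests with Benjamini-Hochberg adjustment over all genes tested and a threshold of 0.05, and "rose" or "fell" is said only of members past it. Of 8 rod markers, 8 lay above the array median in the retina and 6 in the pineal gland. Of 6 pinealocyte markers, 6 did so in the pineal gland and 4 in the retina, so these counts separate the tissues only in part. The pineal pools also held rod transcripts: Gnat1, the rod transducin subunit, ran from 72.8 to 3511 across them, with the highest signals in pool 3 of cKO and of control at ZT6.

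Neurod1 itself had 682, 599 and 277 signal units in cKO retinas at ZT6, against 7194, 7306 and 6421 in control retinas. For ZT20 the signals were 336, 3864 and 3526 in cKO retinas, against 7713, 7474 and 7857 in control retinas. In the pineal gland at ZT6 it had 84.5, 36.7 and 33.9 in cKO, against 4785, 4867 and 4668 in control. The ZT20 signals were 28.7, 2001 and 864 in cKO pineal glands, against 3186, 3964 and 2978 in control. Thus cKO pools 2 and 3 at ZT20 kept much Neurod1 signal in both tissues, and the fall at ZT20 did not pass the limma test (adjusted p = 0.053 in the retina and 0.30 in the pineal gland). Leaving these pools out keeps only cKO pool 1 of each tissue at ZT20, whose spread cannot be seen. For that alternative, differences are given below without a test.

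In the cKO retina the cilium genes were lower relative to the rest of the array. Averaged over ZT6 and ZT20, 25 of 55 members fell and 2 rose, and 28 did not pass the limma test. Of all 11341 genes, 11.8% fell and 12.9% rose. The median member difference was -0.26 on the log2 scale, against 0.00 over all genes, and 47 of the 55 members were below 0. Without cKO pools 2 and 3 at ZT20, which leaves cKO pool 1 there, 0 of the 27 called members changed sign. Bbs7 then read -0.67, Cep250 -1.13 and Ift57 0.35. The number of calls depended on the scaling. As deposited, the median of all genes was 0.20 higher in cKO, the median of the members was -0.03, and only 2 members fell while 3 rose. With each array centred on its median, the medians were -0.06 for all genes and -0.29 for the members, and 28 fell and 0 rose. The members' median relative to that of all genes stayed between -0.33 and -0.23 over the 24 settings tried. The falls are therefore falls relative to the other transcripts on the array. Fewer photoreceptor cells and less RNA per cell cannot be told apart in pooled tissue.

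**Figure D1:**
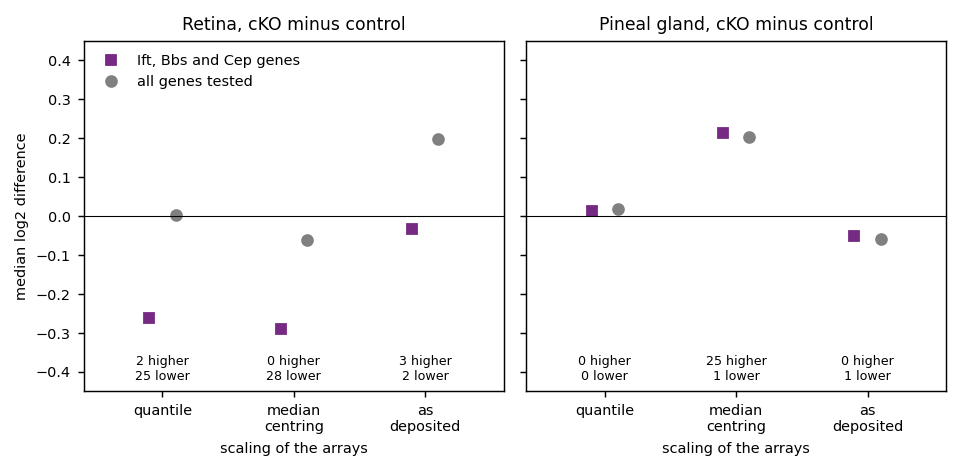
Median log2 difference, cKO minus control, averaged over ZT6 and ZT20 (y axis) under 3 scalings of the arrays (x axis), for the Ift, Bbs and Cep genes tested (squares) and for all genes tested (circles), in the retina and the pineal gland. The numbers below give the members called higher and lower; in the retina the squares lie below the circles under every scaling, from -0.26 against 0.00 after quantile normalisation to -0.03 against 0.20 as deposited.

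**Figure D2:**
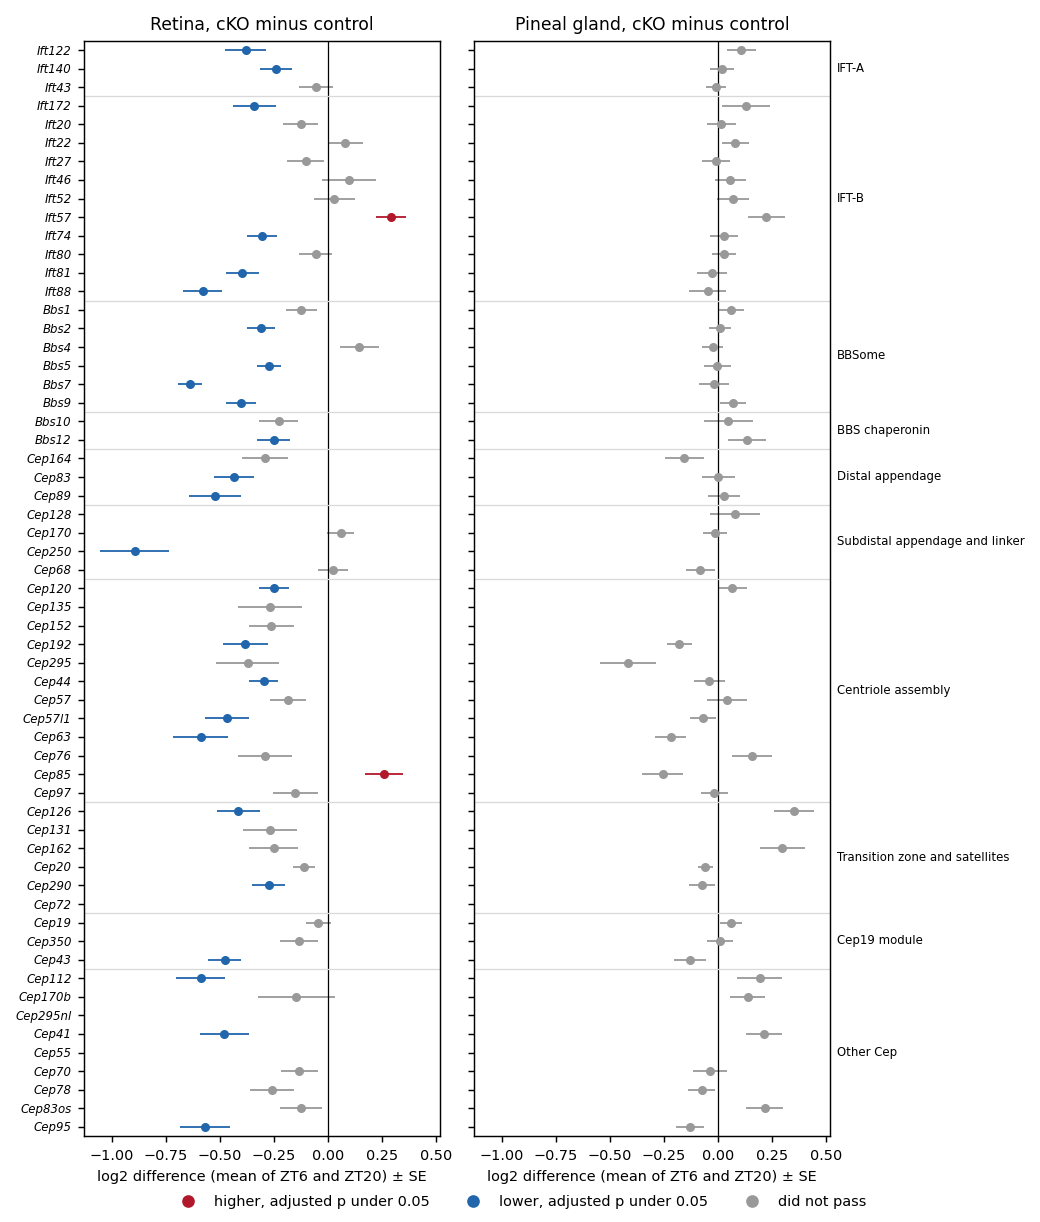
Log2 difference, cKO minus control, averaged over ZT6 and ZT20 (x axis, with its SE) for each Ift, Bbs and Cep gene, grouped by role, in the retina and the pineal gland. In the retina 25 of 55 members lie below 0 with an adjusted p under 0.05 and 2 above it, and in the pineal gland 0 of 52 pass; rows with no point were not tested in that tissue.

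Among the BBSome subunits, 4 of 6 fell in the cKO retina, with a median of -0.29. Bbs7, a subunit with a propeller-shaped domain, had 2470, 2384 and 2156 signal units in cKO retinas at ZT6, against 3392, 3770 and 3288 in control. At ZT20 the values were 2398, 2462 and 2609 in cKO retinas, against 4085, 4075 and 4046 in control. No cKO pool reached any control pool, and the averaged difference was -0.64 ± 0.06 (SE, adjusted p = 3.3e-06). It passed the test at ZT6 (-0.57 ± 0.08, adjusted p = 0.00036) and at ZT20 (-0.71 ± 0.08, adjusted p = 8.8e-05). It was also among the members that passed with the signals as deposited, with a difference of -0.47.

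Bbs9, a core subunit of the BBSome, had 1607, 1537 and 1441 in cKO retinas at ZT6, against 1741, 1599 and 1822 in control, and those pools overlapped. At ZT20 it had 1161, 1369 and 1407 in cKO retinas, against 1911, 2088 and 2136 in control. It fell by 0.64 ± 0.10 at ZT20 (adjusted p = 0.0013), and its value of -0.17 ± 0.10 at ZT6 did not pass (adjusted p = 0.27). Bbs2, another propeller subunit, had 2639, 2747 and 2422 in cKO retinas at ZT6, against 3346, 3383 and 3053 in control, and 2500, 2676 and 3003 in cKO retinas at ZT20, against 3426, 3544 and 3065 in control. Its pools did not overlap at either time, and the averaged difference was -0.31 ± 0.06 (adjusted p = 0.0033). Bbs5, the subunit that binds membrane phosphoinositides, fell by 0.27 ± 0.06 (adjusted p = 0.0034). Its cKO pools lay between 4267 and 4983, and its control pools between 5063 and 6073.

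The other BBSome members did not move in 1 direction. Bbs1, the subunit that binds the small GTPase Arl6, differed by -0.12 ± 0.07 (adjusted p = 0.23). Bbs4, a subunit needed to complete the complex, differed by 0.15 ± 0.09 (adjusted p = 0.26), and its 3 other probe sets gave 0.13 to 0.20. Of the chaperonin pair, Bbs12 fell by 0.25 ± 0.08 (adjusted p = 0.028), a call that held in 13 of 23 alternative settings. Bbs10 had cKO pools between 203 and 233 and control pools between 235 and 291, with a difference of -0.23 ± 0.09 that did not pass (adjusted p = 0.078).

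Of 11 IFT-B subunits, 4 fell and 1 rose in the cKO retina, and their median was -0.10. Ift88, a core subunit long used as a marker of the whole IFT-B complex, had 320, 357 and 341 in cKO retinas at ZT6, against 629, 513 and 508 in control. For ZT20 the signals were 306, 279 and 332 in cKO retinas, against 423, 414 and 473 in control. The pools did not overlap at either time, and the averaged difference was -0.58 ± 0.09 (adjusted p = 0.00039). Ift81, which binds tubulin together with Ift74, fell by 0.40 ± 0.07 (adjusted p = 0.0018), and its other probe set above the array median read -0.53. Ift74 fell by 0.31 ± 0.07 (adjusted p = 0.0063). Ift172, the largest peripheral subunit, had cKO pools between 287 and 380 and control pools between 377 and 455, and fell by 0.34 ± 0.10 (adjusted p = 0.024). That call held in 15 of 23 alternative settings.

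Ift57 went the other way. This subunit, also known as a partner of huntingtin-interacting protein, had 1597, 1526 and 1691 in cKO retinas at ZT6, against 1216, 1133 and 1357 in control. The ZT20 signals were 1647, 1400 and 1521 in cKO retinas, against 1260, 1360 and 1317 in control. All cKO pools lay above all control pools, and the averaged difference was 0.29 ± 0.07 (adjusted p = 0.0080). Ift20, which links the Golgi to the cilium, and Ift27, a small GTPase of the train, differed by -0.13 ± 0.08 (adjusted p = 0.29) and -0.10 ± 0.09 (adjusted p = 0.42). For Ift22, Ift46, Ift52 and Ift80 the differences lay between -0.06 and 0.10, and none passed.

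Of the 3 IFT-A subunits, 2 fell in the cKO retina. Ift122, a core subunit, had 711, 921 and 658 in cKO retinas at ZT6, against 909, 849 and 901 in control, and those pools overlapped. At ZT20 the values were 691, 789 and 914 in cKO retinas, against 1169, 1212 and 1088 in control, and the pools were apart. Averaged over both times it fell by 0.38 ± 0.10 (adjusted p = 0.011). Ift140 fell by 0.24 ± 0.07 (adjusted p = 0.028), with cKO pools between 1861 and 2344 and control pools between 2125 and 2640, and this call held in 16 of 23 alternative settings. Ift43 differed by -0.06 ± 0.08 (adjusted p = 0.64).

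Among the Cep genes tested, 14 of 33 fell, 1 rose, and the median was -0.27. The lowest value of all members was that of Cep250, also called C-Nap1, which tethers the centriole pair. It had 191, 281 and 183 in cKO retinas at ZT6, against 413, 494 and 377 in control. At ZT20 it had 172, 237 and 355 in cKO retinas, against 417, 486 and 458 in control. The cKO pools spread more than the control pools at ZT20 but stayed below them, and the averaged difference was -0.90 ± 0.16 (adjusted p = 0.0012). As deposited, the difference was -0.61 and still passed. Cep68, another linker protein, and Cep170, a subdistal appendage protein, differed by 0.02 ± 0.07 (adjusted p = 0.84) and 0.06 ± 0.06 (adjusted p = 0.52).

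The distal appendages anchor the centriole to the membrane, and 2 of their 3 members fell. Cep83, needed for the first step of that anchoring, had cKO pools between 324 and 381 and control pools between 375 and 634, and fell by 0.43 ± 0.09 (adjusted p = 0.0040). Cep89 fell by 0.52 ± 0.12 (adjusted p = 0.0062), with cKO pools between 247 and 424 and control pools between 406 and 513. Cep164, which recruits the kinase that starts cilium growth, differed by -0.29 ± 0.11 and did not pass (adjusted p = 0.064). Its 2 other probe sets read -0.35 and -0.75.

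Of 12 members with roles in centriole assembly, 5 fell and 1 rose in the cKO retina. Cep63, which acts with Cep152 around the parent centriole, had 1276, 1291 and 1022 in cKO retinas at ZT6, against 1924, 2679 and 1807 in control. For ZT20 the signals were 1068, 1282 and 1666 in cKO retinas, against 1859, 1838 and 1437 in control, and there 1 cKO pool overlapped the control pools. The averaged difference was -0.59 ± 0.13 (adjusted p = 0.0045). Cep57l1, a paralogue of Cep57, fell by 0.47 ± 0.10 (adjusted p = 0.0044), and Cep192, a scaffold of the material around the centriole, fell by 0.38 ± 0.10 (adjusted p = 0.016). Cep152 itself differed by -0.26 ± 0.11 and did not pass (adjusted p = 0.089). Cep85 rose by 0.26 ± 0.09 (adjusted p = 0.048), but its other probe set, at a lower signal, read -0.65, so the direction for this gene depends on the probe set. The call held in 11 of 23 alternative settings.

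At the transition zone and the centriolar satellites, 2 of 5 tested members fell. Cep290, which spans the transition zone and whose defects cause early blindness in humans, had 1187, 1166 and 995 in cKO retinas at ZT6, against 1243, 1365 and 1231 in control. The ZT20 signals were 890, 991 and 947 in cKO retinas, against 1089, 1193 and 1347 in control. The pools did not overlap at either time, and the averaged difference was -0.27 ± 0.08 (adjusted p = 0.020). Cep126 fell by 0.41 ± 0.10 (adjusted p = 0.0076). Cep43, also called FOP, which works with Cep19 and Cep350 at the centriole, had cKO pools between 898 and 1164 and control pools between 1285 and 1467. It fell by 0.48 ± 0.08 (adjusted p = 0.00056), while Cep19 and Cep350 differed by -0.04 ± 0.06 (adjusted p = 0.61) and -0.13 ± 0.09 (adjusted p = 0.30).

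Among the remaining Cep genes, Cep112, Cep95 and Cep41 fell. Cep112 had 188, 211 and 199 in cKO retinas at ZT6, against 349, 372 and 397 in control. At ZT20 the values were 201, 288 and 225 in cKO retinas, against 274, 367 and 265 in control, and those pools overlapped. Its averaged difference was -0.59 ± 0.11 (adjusted p = 0.0021). This probe set has a suffix marking possible cross-hybridisation, and the gene's other probe sets, under the array median, read -0.27 and -0.20. Cep95 differed by -0.57 ± 0.12 (adjusted p = 0.0031), although its next probe set, at a lower signal, read 0.04. Cep41, which is needed for glutamylation of ciliary tubulin, fell by 0.48 ± 0.11 (adjusted p = 0.0076), with cKO pools between 427 and 587 and control pools between 609 and 881. Cep78, linked in humans to a cone-rod dystrophy with hearing loss, differed by -0.26 ± 0.10 (adjusted p = 0.081). Across the 13 fallen members with further probe sets, 6 of the 7 such probe sets above the array median lay below 0. Over all 23, most of them under that median, 21 did so, and no share over other genes was computed.

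**Figure D3:**
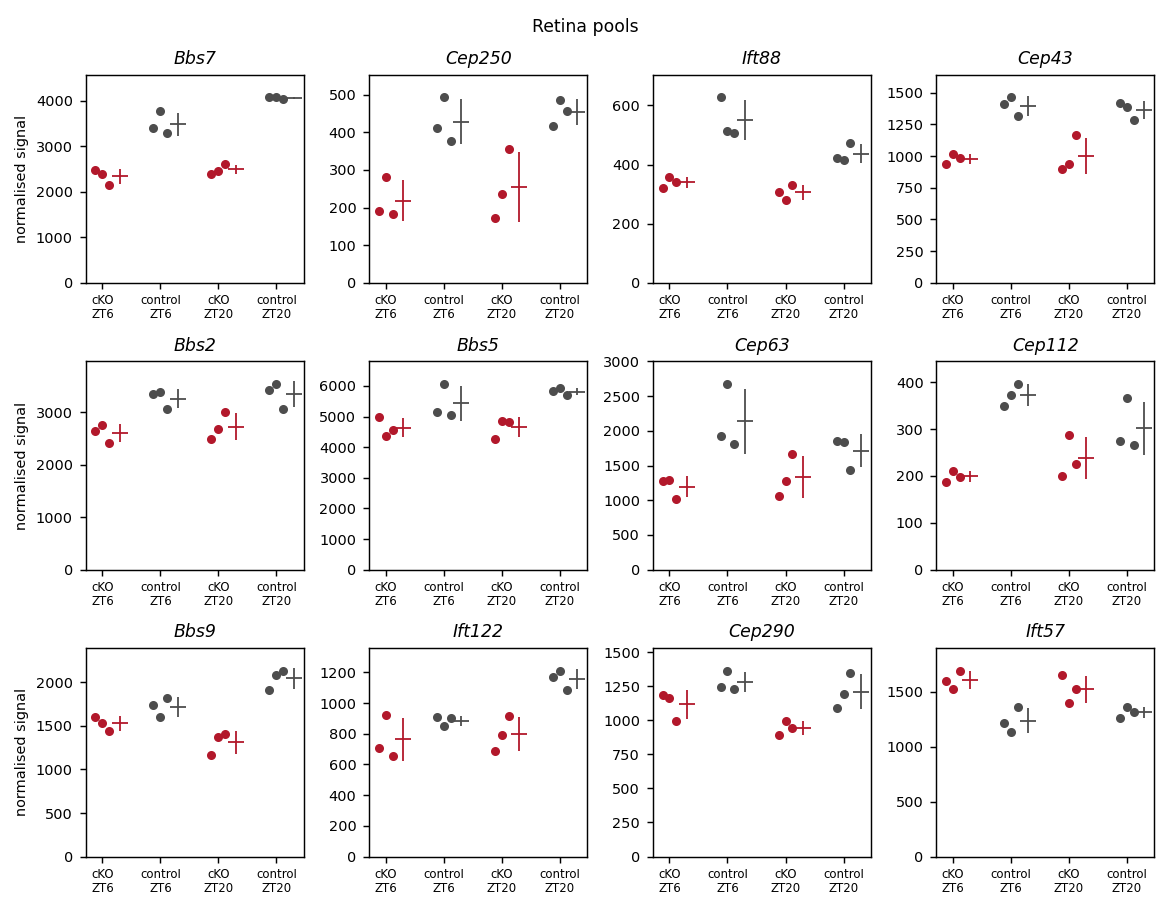
Quantile-normalised signal (y axis, linear, from 0) of 12 members in each retina pool, cKO (red) and control (grey) at ZT6 and ZT20 (x axis); points are pools, and the bar beside them is the mean with its SD (n = 3). Bbs7, Cep250, Ift88, Cep43, Bbs2 and Bbs5 show no overlap between the 6 cKO and the 6 control pools, and Ift57 is the one shown that is higher in cKO.

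By time, 15 members fell and 1 rose in cKO retinas at ZT6, where 7.07% of all genes fell and 9.03% rose. At ZT20, 10 fell and 0 rose, where 4.57% of all genes fell and 5.11% rose. Bbs7, Cep250, Cep43 and Ift88 fell at both times, 11 members fell at ZT6 alone and 6 at ZT20 alone, Ift57 rose at ZT6, and the difference between the times was not tested. At ZT6 the lowest values were those of Cep250 (-0.94 ± 0.22, adjusted p = 0.012), Cep112 (-0.85 ± 0.16, adjusted p = 0.0033) and Cep63 (-0.81 ± 0.18, adjusted p = 0.0086). At ZT20 they were Cep250 (-0.85 ± 0.22, adjusted p = 0.029) and Bbs7, followed by Bbs9 and Cep126 (-0.63 ± 0.14, adjusted p = 0.011). Without cKO pools 2 and 3, cKO at ZT20 rests on pool 1 alone, so only differences are given. At ZT20, 0 of the 10 members changed sign, and Ift88, Cep126 and Cep250 read -0.49, -0.74 and -1.32. Averaged over both times, Bbs1, Ift20 and Ift27 then read -0.21, -0.04 and -0.03. Leaving out single pools moved the ZT20 count further than the others: it was 3, 2 and 5 without control ZT20 pool 1, 2 or 3, and 2, 5 and 14 without cKO ZT20 pool 1, 2 or 3. At ZT6 it was 9 without control ZT6 pool 2 and 10 without cKO ZT6 pool 3.

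Several other groups of cilium genes also had medians below 0 in the cKO retina, where 11.8% of all genes fell and 12.9% rose. Of 15 genes of the photoreceptor connecting cilium and axoneme, 13 fell and 0 rose, with a median of -0.25. They included Poc1b, a centriole protein (-0.64 ± 0.13, adjusted p = 0.0027), the cilium kinase Mak (-0.50 ± 0.12, adjusted p = 0.0097) and Rp1l1, a microtubule protein of the outer segment axoneme (-0.47 ± 0.07, adjusted p = 0.00022). Of 14 other transition zone genes, 8 fell and 0 rose, with Cc2d2a lowest (-0.57 ± 0.09, adjusted p = 0.00036). Of 9 IFT subunits under other symbols, 6 fell and 0 rose, with the IFT-A subunit Ttc21b lowest (-0.41 ± 0.08, adjusted p = 0.0023). Of 7 BBSome subunits and partners under other symbols, 4 fell and 0 rose, with the subunit Ttc8 lowest (-0.53 ± 0.09, adjusted p = 0.00059).

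Among the motors, the centriole core and the transcription factors, genes were called in both directions, and 24.6% of all genes were called in either direction. Of 11 motor and adaptor genes, 3 fell and 1 rose, and the kinesin subunit Kif3a and the dynein heavy chain Dync2h1 differed by -0.0032 ± 0.06 (adjusted p = 0.98) and -0.02 ± 0.09 (adjusted p = 0.90). Tulp1 and Tulp3 are related adaptors of ciliary membrane proteins, Tulp1 being found in photoreceptors. Tulp1 fell by 0.51 ± 0.08 (adjusted p = 0.00060) and Tulp3 rose by 0.67 ± 0.09 (adjusted p = 0.00016). Of 17 genes of the centriole and the material around it, 4 fell and 1 rose, with a median of -0.15. Of 5 Rfx transcription factors tested, Rfx2 rose (0.78 ± 0.12, adjusted p = 0.00037), Rfx1 fell (-0.43 ± 0.11, adjusted p = 0.012), and Rfx3, Rfx5 and Rfx7 did not pass.

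Markers of several cell types moved in the same samples. Of 7 cone markers, 6 fell, and their summed signal was 14664 to 19427 over the 6 cKO pools, against 24158 to 28720 in control. The cone opsin gene Opn1sw was higher in cKO at ZT6 (0.35 ± 0.08, limma, adjusted p = 0.0084). Of 8 rod markers, 4 fell, with a median of -0.10, and their sum was 66892 to 73555 in cKO, against 75009 to 79124 in control. Of 5 tested microglia and macrophage markers, 5 rose, with a median of 1.84, and the sum of all 7 was 5586 to 8395 in cKO, against 1742 to 2485 in control. Of 7 genes listed for Müller glia and gliosis, which include the injury signal Edn2, 6 rose. Their sum was 43912 to 47088 in cKO, against 32183 to 37063 in control. Of 13 markers of motile multiciliated cells, 3 lay above the array median and 1 of these rose. Averaged over both times, bipolar cell markers gave 0 calls of 5 (limma), with a median of 0.06. At ZT6 the bipolar marker Pcp2 was lower in cKO (-0.33 ± 0.10, limma, adjusted p = 0.040). Of 10 amacrine, horizontal and ganglion cell markers 2 rose and 1 fell. Of 9 markers of dividing cells, 0 lay above the array median in the retina. The part that these changes in cell markers have in the fall of the cilium genes was not tested.

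RFX factors bind the X-box, an inverted repeat found near the start of many cilium genes, so promoter windows of the members were searched for it. Windows of 250 bases before to 50 bases after an annotated start, from RefSeq on GRCm38.p6, were at hand for 51 members, with 58 windows in all. Such a start need not be the outermost one of its gene. The motif searched was GTTNCC followed by GGNAAC, with 0 to 3 bases between them, on both strands. It was found in the windows of 4 members, which is 7.84% of those 51, and in 0.936% of all 27025 genes with a window. The 4 windows are shown because they include Bbs7, the member with the smallest adjusted p in the cKO retina, Cep41, which fell too, Ift57, which rose, and Cep19, which did not pass. Capitals mark the X-box, and each window is given 5′ to 3′ on the strand of its gene.
Bbs7: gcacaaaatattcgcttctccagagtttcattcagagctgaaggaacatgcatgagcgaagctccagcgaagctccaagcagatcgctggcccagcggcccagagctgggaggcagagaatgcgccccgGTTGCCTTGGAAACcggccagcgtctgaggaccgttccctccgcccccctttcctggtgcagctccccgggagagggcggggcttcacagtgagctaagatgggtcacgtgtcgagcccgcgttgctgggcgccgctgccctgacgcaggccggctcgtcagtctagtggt
Cep41: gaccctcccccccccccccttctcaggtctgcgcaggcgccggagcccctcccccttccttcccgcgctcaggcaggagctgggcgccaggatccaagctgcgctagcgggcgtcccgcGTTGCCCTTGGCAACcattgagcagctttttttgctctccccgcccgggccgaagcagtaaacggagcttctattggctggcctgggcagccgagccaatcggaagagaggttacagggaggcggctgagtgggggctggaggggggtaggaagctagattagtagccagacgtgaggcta
Ift57: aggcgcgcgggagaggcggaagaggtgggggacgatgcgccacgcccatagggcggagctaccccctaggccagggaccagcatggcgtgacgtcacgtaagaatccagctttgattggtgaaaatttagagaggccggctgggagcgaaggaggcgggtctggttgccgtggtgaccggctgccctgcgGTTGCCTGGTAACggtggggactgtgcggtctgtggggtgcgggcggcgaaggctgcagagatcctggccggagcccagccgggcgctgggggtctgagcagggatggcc
Cep19: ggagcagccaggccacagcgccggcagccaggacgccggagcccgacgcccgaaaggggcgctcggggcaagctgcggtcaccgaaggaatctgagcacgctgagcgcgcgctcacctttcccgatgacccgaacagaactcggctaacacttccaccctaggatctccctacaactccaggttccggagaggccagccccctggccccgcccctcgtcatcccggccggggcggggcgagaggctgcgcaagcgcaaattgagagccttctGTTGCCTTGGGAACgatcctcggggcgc

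The Bbs7 window lies at chr3:36613340-36613639 on the minus strand, with its X-box 121 to 108 bases before the start, which is 103 bases inside the gene's outer start in RefSeq. The Cep41 window lies at chr6:30693700-30693999 on the minus strand, with its X-box 131 to 117 bases before the start. That start is 16768 bases inside the outer start of Cep41, so this window lies within the annotated gene. The Ift57 window lies at chr16:49699044-49699343 on the plus strand, with its X-box 60 to 48 bases before the start. The Cep19 window lies at chr16:32099539-32099838 on the plus strand, with its X-box at bases 23 to 36 from the start.

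A single arm of the motif, GTTGCC, was in the windows of 16 of the 51 members (31.4%) and of 14.1% of all genes, and it overlaps the full motif. Among the 21 fallen members with a window, 7 held it (33.3%). The core TAATCC, bound by Crx, was in 2 of 51 members (3.92%), in 0 of the 21 fallen ones and in 8.14% of all genes. The E-box CAGNTG, the kind that NeuroD factors bind, was in 21 of 51 members (41.2%), in 5 of the 21 fallen ones (23.8%) and in 54.6% of all genes. These are matches of letters in a short window and carry no test.

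In the pineal gland no member passed the test between genotypes, where few genes of the array did. Averaged over ZT6 and ZT20, 0 of 52 members passed the limma test, and 1.63% of all genes did. An unadjusted p under 0.05 was found for 9 members (17.3%) and for 17.8% of all genes. With the pool number as a replicate block, 1 member passed. The members' median was 0.01, against 0.02 over all genes, and 48 members lay within 0.25 of 0. At ZT6, 0 members passed by limma, where 1.87% of all genes did, and 11 members (21.2%) and 2323 of all 11601 genes tested had an unadjusted p under 0.05. At ZT20, 0 members passed and 1 had an unadjusted p under 0.05, and 0% of all genes passed, although 929 of 11601 genes had an unadjusted p under 0.05. Without cKO pools 2 and 3, cKO at ZT20 rests on pool 1 alone, so only differences are given. Averaged over both times, members chosen by role then ran from -0.20 (Cep192) to 0.10 (Bbs9). At ZT20 they ran from -0.26 (Bbs10) to 0.315 (Ift20). The averaged count of members past the limma test was also 0 without pool 3 of cKO and of control at ZT6, the pools of high rod signal. Of 14 tested genes of the photoreceptor connecting cilium, 1 fell in the cKO pineal gland. This count too depends on the scaling: with each array centred on its median, the median of all genes was 0.20 higher in cKO pineal glands, and 25 members were called higher and 1 lower.

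Markers of motile multiciliated cells summed to 3533 to 4099 in cKO pineal glands at ZT6, against 2693 to 3429 in control, and choroid plexus markers to 31441 to 34839 in cKO, against 23639 to 27606 in control. At ZT20 the sums of both lists overlapped between genotypes. Of these markers, 6 and 8 could be tested and none passed the limma test at ZT6. Microglia and macrophage markers summed to 8669.9 to 10831.5 in cKO pineal glands at ZT6, against 11442.4 to 11724.5 in control. For ZT20 the sums were 9525.8 to 10272.5 in cKO, against 11265.3 to 13329.5 in control. Endothelial and meningeal markers summed to 20768 to 22507 in cKO at ZT20, against 24439 to 30421 in control, and overlapped at ZT6. By limma, Tyrobp was lower (adjusted p = 0.018) and Cdh5 higher (adjusted p = 0.042) in cKO at ZT6. Averaged over both times, C1qb, Col1a1 and Col3a1 were lower (limma, adjusted p = 0.018, 0.015 and 0.027). The part of all these cells in the members' values, and in the difference between the tissues' cKO effects, was not tested.

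The members that fell in the retina had pineal differences of either sign, and none passed the limma test. Bbs7 had 584, 628 and 697 in cKO pineal glands at ZT6, against 626, 687 and 724 in control, and 869, 865 and 788 in cKO at ZT20, against 760, 779 and 888 in control. Those pools overlapped at both times, and the averaged difference was -0.02 ± 0.07 (adjusted p = 0.92). Ift88 had 450, 415 and 442 in cKO pineal glands at ZT6, against 521, 444 and 385 in control, and 407, 354 and 421 in cKO at ZT20, against 383, 410 and 440 in control. Its averaged difference was -0.05 ± 0.08 (adjusted p = 0.81). Cep63 differed by -0.22 ± 0.07 (adjusted p = 0.12), and its cKO pools lay below the control pools at ZT6, with 960, 937 and 849 in cKO, against 1219, 1186 and 1092 in control. Cep112 differed by 0.19 ± 0.11 (adjusted p = 0.36). Cep250 had signals of 105 to 195 over the pineal pools, with a mean under the array median, and was not tested there. The furthest averages were those of Cep126 (0.35 ± 0.09, adjusted p = 0.062) and Cep295 (-0.41 ± 0.13, adjusted p = 0.11), and neither passed.

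The cKO effect in the retina minus that in the pineal gland was tested directly. It was lower for 21 of 53 members and higher for 1, where 7.32% of all genes were lower and 8.48% higher. The members' median was -0.26, against -0.02 over all genes. Over the 51 members tested in both tissues, 20 were lower and 1 higher. Among these, Cep112, Cep126, Cep41 and Bbs7 had the lowest values, at -0.78 ± 0.15 (adjusted p = 0.00068), -0.77 ± 0.13 (adjusted p = 0.00021), -0.69 ± 0.14 (adjusted p = 0.0018) and -0.62 ± 0.09 (adjusted p = 2.4e-05). The Cep112 value comes from a probe set marked for possible cross-hybridisation. For Cep250 the value was -0.82 ± 0.22 (adjusted p = 0.012), but its pineal signals were under the array median on average, and it entered this fit through its retina signals. The member that was higher was Cep85 (0.52 ± 0.14, adjusted p = 0.015). Without the cKO ZT20 pools 2 and 3 of both tissues, pool 1 of each is left there, so only differences are given. Cep112, Bbs7, Cep162 and Ift172 then read -0.94, -0.67, -0.47 and -0.46, and Cep85 read 0.59. Without the pineal ZT6 pools of high rod signal, pool 3 of cKO and of control, 15 were lower and 1 higher. As deposited, where the median of all genes was 0.26, 0 were lower and 1 higher, and centred on array medians, where it was -0.26, 40 were lower and 0 higher.

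Between tissues, 69.8% of the members tested differed in control samples, against 78.3% of all genes. In control retina, averaged over ZT6 and ZT20, 30 of 53 members were higher than in control pineal gland and 7 were lower, where 37.2% of all genes were higher and 41.1% lower. The members' median was 0.23, against -0.03 over all genes. As deposited, where the median of all genes was -0.26, the split was 19 higher and 13 lower. Without pool 3 of cKO and of control pineal glands at ZT6, it was 29 higher and 6 lower. Bbs7 had a lowest, median and highest signal of 3288, 3908 and 4085 in control retinas, against 626, 742 and 888 in control pineal glands, a difference of 2.32 ± 0.06 (adjusted p = 3.3e-19). Among members tested in both tissues, Bbs12 followed with 1.5 ± 0.08 (adjusted p = 1.1e-13) and Cep164 with 1.22 ± 0.11 (adjusted p = 5.5e-10). The control pools of the tissues did not overlap for these. Cep250 and Cep152 were called higher too, with 377 to 494 and 364 to 527 in control retinas, against 117 to 169 and 126 to 154 in control pineal glands. Their mean pineal signals were under the array median, so their size of difference is not given. Over the 51 members tested in both tissues, 28 were higher and 7 lower, with a median of 0.19.

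By role, 4 of 6 BBSome subunits were higher in the retina, with a median of 0.70, and both chaperonin members were higher, with a median of 0.99. Bbs5 and Bbs9 were higher by 0.99 ± 0.06 (adjusted p = 1.4e-12) and 0.75 ± 0.06 (adjusted p = 2.5e-10), while Bbs1 and Bbs4 differed by -0.06 ± 0.07 (adjusted p = 0.43) and -0.08 ± 0.07 (adjusted p = 0.34). IFT-B split evenly, with 4 higher and 4 lower of 11 and a median of 0.03. Ift22, Ift172, Ift52 and Ift46 were lower in the retina, at -0.57 ± 0.07 (adjusted p = 1.6e-07), -0.52 ± 0.11 (adjusted p = 0.00017), -0.46 ± 0.08 (adjusted p = 4.4e-05) and -0.39 ± 0.11 (adjusted p = 0.0020). The lowest member was Cep162, which acts at the base of the transition zone, at -1.43 ± 0.11 (adjusted p = 5.1e-11). It had 171, 186 and 237 as its lowest, median and highest signal in control retinas, against 475, 543 and 619 in control pineal glands.

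**Figure D4:**
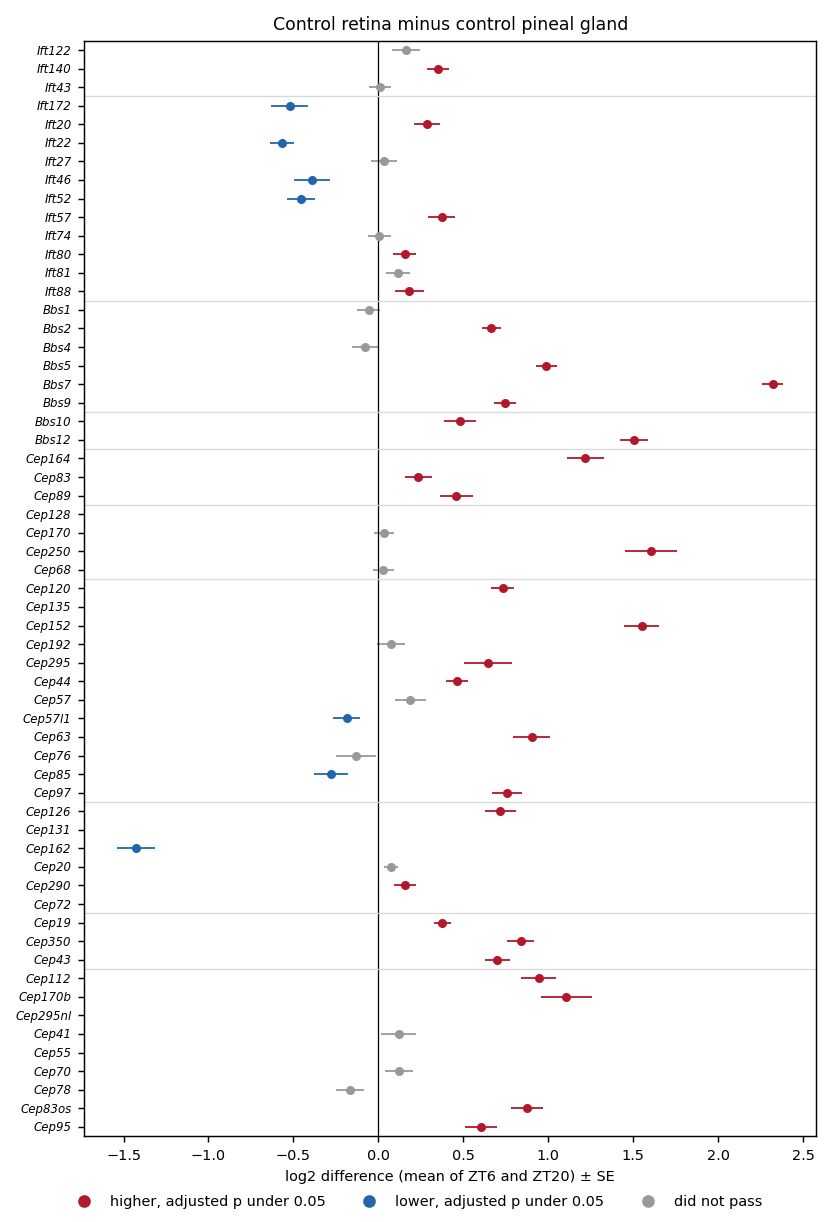
Log2 difference, control retina minus control pineal gland, averaged over ZT6 and ZT20 (x axis, with its SE), for the 53 Ift, Bbs and Cep genes tested, grouped by role. 30 lie above 0 and 7 below it with an adjusted p under 0.05, from 2.32 for Bbs7 to -1.43 for Cep162. Cep250 and Cep152 had mean pineal signals under the array median.

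The night to day comparisons used the same pools in another way. In control retinas 1 of 55 members changed between ZT20 and ZT6, where 1.28% of all genes did. It was Cep70, a centrosomal protein that interacts with tubulin, with 807, 847 and 638 at ZT20, against 1149, 1179 and 1157 at ZT6 (-0.60 ± 0.12, adjusted p = 0.032). That call held in 8 of 16 alternative settings, and the count was 0 without control ZT6 pool 1 or 2, and 0 on leaving out any 1 of the control ZT20 pools. In cKO retinas 0 of 55 passed the limma test, and 0.353% of all genes did, while 7 members (12.7%) and 8.05% of all genes had an unadjusted p under 0.05. Without cKO ZT20 pools 2 and 3, which leaves pool 1 there, members chosen by role ran from -0.40 (Cep164) to 0.28 (Ift20).

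In control pineal glands 5 of 52 members were higher and 9 lower at ZT20 than at ZT6, where 12.3% of all genes were higher and 13.5% lower, so the members' share was near that of all genes. In the same pools, 3 of 6 tested rod markers fell, with a median of -0.58 and a sum of 21059 to 21532 at ZT20, against 24775 to 30162 at ZT6. Of 8 endothelial and meningeal markers 3 rose (Pecam1, Cdh5 and Dcn), with a median of 0.26 and a sum of 24439 to 30421 at ZT20, against 23811 to 26663 at ZT6. Of 5 tested cone markers, 2 fell (Gnat2 and Opn1sw), with a sum of 10658 to 11845 at ZT20, against 13578 to 13882 at ZT6. Gnat1 did not pass in control (limma, adjusted p = 0.77). Sag, Rom1 and Pde6b had 8087 to 11000, 6821 to 8076 and 2429 to 4581 over all pineal pools. The cone markers Gnat2 and Pde6c had 4339 to 6624 and 5335 to 6139 there. These sums therefore cannot be read as amounts of rod or cone cells in the pools. The part of these markers in the members' differences was not tested. Cep89 had 415, 375 and 431 at ZT20, against 268, 277 and 276 at ZT6 (0.54 ± 0.10, adjusted p = 0.0020). Cep76, which restrains centriole duplication, was higher by 0.47 ± 0.13 (adjusted p = 0.018), and Bbs1 by 0.39 ± 0.09 (adjusted p = 0.0047). Cep57l1 had 564, 590 and 572 at ZT20, against 935, 889 and 875 at ZT6 (-0.63 ± 0.08, adjusted p = 0.00013). Cep164 and Bbs12 differed by -0.51 ± 0.13 (adjusted p = 0.0093) and -0.46 ± 0.12 (adjusted p = 0.014), and Cep20, a satellite protein, had 4358, 4355 and 4241 at ZT20, against 5436, 5451 and 5375 at ZT6 (-0.33 ± 0.05, adjusted p = 0.00032). Leaving out control ZT6 pool 1 or 2 gave 7 or 9 calls, and leaving out the first ZT20 pool of control gave 7. As deposited it was 1.

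In cKO pineal glands 7 members were higher and 2 lower at ZT20 than at ZT6, where 8.34% of all genes were higher and 9.56% lower. In these pools 3 of 6 tested rod markers fell, with a median of -0.45 and a sum of 20800 to 21754 at ZT20, against 24197 to 29178 at ZT6. Of 5 tested cone markers 1 fell, with a sum of 11124 to 12444 at ZT20, against 12396 to 13799 at ZT6. Among the rod markers that fell, Sag and Pde6b had 8087 to 11000 and 2429 to 4581 over all pineal pools. Here too the sums cannot be read as amounts of rod or cone cells. Gnat1 did not pass in cKO (limma, adjusted p = 0.88). The part of these markers in the members' differences was not tested here either. Cep57l1, Cep76, Cep170 and Ift140 passed in both genotypes with the same sign. Without cKO ZT20 pools 2 and 3, pool 1 alone is left there, so only differences are given. The 9 members kept their sign, and of these Cep76 read 0.78, Cep290 -0.41, Bbs7 0.44, Cep43 0.48 and Ift140 0.24. Cep76 had 1828, 1556 and 1478 at ZT20, against 1068, 970 and 1133 at ZT6 (0.61 ± 0.13, adjusted p = 0.0056), and Cep57l1 had 606, 561 and 605 at ZT20, against 768, 776 and 843 at ZT6 (-0.42 ± 0.08, adjusted p = 0.0030). Cep43 and Bbs7 were higher by 0.48 ± 0.10 (adjusted p = 0.0060) and 0.39 ± 0.10 (adjusted p = 0.013), and Cep290 differed by -0.32 ± 0.09 (adjusted p = 0.019). Cep43 and Bbs7 lost their calls with arrays centred on their medians. The count was 4 without cKO ZT6 pool 1, and 1 as deposited. Whether the night to day difference itself changes with genotype was not tested.

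**Figure D5:**
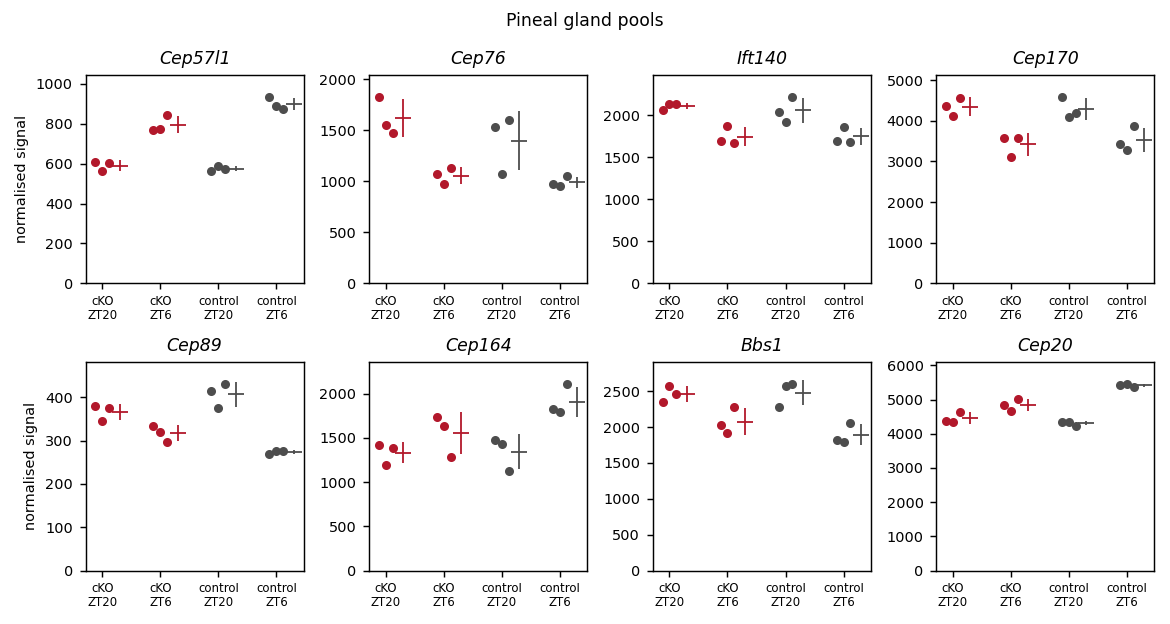
Quantile-normalised signal (y axis, linear, from 0) of 8 members in each pineal pool, cKO (red) and control (grey), ZT20 beside ZT6 (x axis); points are pools, and the bar beside them is the mean with its SD (n = 3). Cep57l1 is lower and Cep76, Ift140 and Cep170 are higher at ZT20 in both genotypes.

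The members left untested were dim. In the retina these were Cep128 (61.9 to 138 over the 12 arrays), Cep55 (22.5 to 48.1), Cep72 (9.62 to 42.8) and Cep295nl (0.871 to 22.7), all with means under the array median. In the pineal gland they were Cep131, Cep135, Cep152, Cep250, Cep55, Cep72 and Cep295nl. Cep55 lay higher in the pineal gland (68.3 to 109) than in the retina, and no pool of either tissue overlapped, but both ranges are below the median. Signals of different probe sets were not ranked as abundances, because they depend on the probes.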

How the data were processed

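RNA of 24 pools was measured on Affymetrix Mouse 430 2.0 arrays, amplified and labelled with NuGEN Ovation and FL-Ovation kits, per the labels' protocols. The deposited values are linear signal intensities for 45101 probe sets. The submitters' processing notes name GCOS, while no source used here gives its scaling. Because array medians differed by up to 183.2 over 107.2, the intensities were quantile-normalised over all 24 arrays before log2(signal + 16), while the signals as deposited and centred on array medians were alternatives. Groups came from the sample titles. Probe sets with 1 symbol (34945) were used, those with several (932) or none (9160) and 64 control sets were left out, and symbols matched RefSeq through gene identifiers for 34741. The brightest probe set represented a gene, which for 6 members has a suffix marking possible cross-hybridisation.

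limma 3.58.1 in R 4.3.3 (lmFit, eBayes with trend) was fitted per tissue with 4 group means, or over 24 arrays with 8. P-values are two-sided. The members, lists and tests were chosen with earlier results of these data known. Members described in the text are those called in a comparison, up to 12 in each direction by size, and a set chosen by role, with names beyond these given as values. The sample titles state no pairing of pools. Same-numbered pools were most alike in cKO and control pineal glands at ZT6, where their deviations correlated at 0.328, 0.368 and 0.495 across genes. Whether those pools were paired is not known. There a replicate block gave 0 calls too, against 1 call over both times. The code was tested on simulated data. Within groups, arrays correlated at 0.983 to 0.992, and the number of arrays limits the precision. Scan dates were not used here.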

Additional observations from a re-analysis of the deposited data

Results flagged for a closer look

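In 22 members the fit gave a cKO effect in the retina that differed from that in the pineal gland (limma, adjusted over all genes tested). On the log2 scale, retina effect minus pineal effect, the values were -0.782 for Cep112, -0.768 for Cep126, -0.692 for Cep41, -0.622 for Bbs7 and -0.554 for Cep89. They were -0.550 for Cep162, -0.532 for Ift88, -0.489 for Ift122, -0.474 for Bbs9, -0.471 for Ift172, -0.441 for Cep95 and -0.436 for Cep83. They were -0.399 for Cep57l1, -0.386 for Bbs12, -0.370 for Ift81, -0.352 for Cep43, -0.335 for Ift74, -0.321 for Bbs2, -0.316 for Cep120 and -0.271 for Bbs5. The value for Cep250 was -0.817, but its pineal signals were under the array median on average and were not tested on their own. The value for Cep85 was 0.515, from a probe set that another probe set of the gene opposes. Those for Cep112, Ift122 and Ift81 come from probe sets marked for possible cross-hybridisation. Ift172 kept its call in 19 of 36 alternative settings and Bbs5 in 21 of 36, and as deposited 1 member was called in this comparison.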

How the results depend on the processing

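The scaling of the arrays moved most counts. With the signals as deposited, the members called were 5 in the cKO retina averaged over times, 2 at ZT6 and 1 at ZT20, and 1 for the cKO pineal gland averaged and 1 at ZT6. They were 0 for night against day in control retina, 1 in control pineal gland, 1 in cKO pineal gland, and 1 for the retina effect minus the pineal effect of cKO. With arrays centred on their medians they were 26 in the cKO pineal gland averaged and 14 at ZT6, 0 for night against day in control retina, 8 in control and 4 in cKO pineal gland, and 40 for the difference between tissues. Under that centring Bbs4 and Bbs5 were called higher in cKO pineal glands, by 0.202 and 0.228. As deposited, Ift88 and Cep290 were -0.055 and -0.095 in control retina against control pineal gland, the opposite sign, as for 4 of the 37 members called there in all, and 1 of 16 members called in the cKO retina at ZT6 changed sign too. Without a mean-variance trend 1 member was called in the averaged cKO pineal gland.

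The replicate block called 1 member in the averaged cKO pineal gland, 0 in control retina at night against day, 27, 12 and 9 in the cKO retina averaged, at ZT6 and at ZT20, and 31 between control tissues, where the signals as deposited gave 32 against the 37 reported. The pool numbers were not shown to pair the samples. Leaving out 1 pool gave 21 to 29 calls in the cKO retina averaged, 9 to 17 at ZT6 and 2 to 14 at ZT20, 0 to 2 in the averaged cKO pineal gland, and 0 to 1 for night against day in control retina. It gave 7 to 15 in control and 4 to 11 in cKO pineal glands, 33 to 37 between tissues and 16 to 24 for the difference in cKO effect. An alternative chosen after seeing the data left out cKO ZT20 pools 2 and 3. It keeps cKO pool 1 of each tissue at ZT20, so only its differences are given above. Another left out pineal ZT6 pool 3 of both genotypes and gave 16 calls for the difference in cKO effect.

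The cause of these changes was not tested. Pools per group limit every comparison, and dim probe sets were not tested.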
